A study of Mus musculus with 11 samples.

Results

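The integrated stress response and the unfolded protein response were examined in SMB21 medulloblastoma cells through 45 listed genes: Atf4 and its known targets, genes of amino acid synthesis and transport, and genes of protein folding and quality control in the endoplasmic reticulum (ER). The list names genes by their known function, and a member had to reach a mean level of at least 1 CPM (counts scaled to a common library total) over the libraries. All 45 were among the 22619 genes counted, and 44 passed that level, which 12615 genes passed in all. The one that did not was the amino acid transporter Slc7a3, with a mean of 0.436 CPM, while the lowest member kept was Stc2, at 6.29 CPM.

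SMB21 is a mouse medulloblastoma line with a Ptch1 mutation (strain background Ptch1tm1Mps/J, age given as adult), so every group, controls included, carries a mutation that activates the Hedgehog pathway. It was grown as neurospheres, and 11 poly(A) RNA libraries were counted. They came from untreated parental cells (3 libraries), parental cells after 24 h with sonidegib, an inhibitor of the Hedgehog transducer Smoothened (2 libraries), Sufu mutants (2 libraries) and Ofd1 mutants (4 libraries). The mutants were clones found in a transposon screen for drug resistance; whether drug was present when they were harvested is not stated. Each clone is 1 library (Sufu R13 and R1, Ofd1 R16 and R25), except that Ofd1 clone R14 gave 2. A mutant group therefore mixes genotype with clone. Its p-values weigh the group difference against the spread between libraries in both groups compared. The R14 libraries count there as separate replicates, although their spread is that within a clone.

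When unfolded proteins collect in the ER or amino acids run short, the kinases Perk (coded by Eif2ak3) and Gcn2 phosphorylate the translation factor eIF2 alpha. General protein synthesis then slows, while the transcription factor Atf4 is translated more and switches on genes of amino acid supply, redox balance and, under lasting stress, cell death. The other ER sensors, Ire1 (Ern1) and Atf6, act through the transcription factors Xbp1 and Atf6 on chaperones, folding enzymes and the machinery that degrades misfolded ER proteins. The members were grouped into 8 roles along these lines.

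The members of the Atf4 arm differed several-fold between libraries, both between groups and between libraries of a group. The median over the feedback and effector targets lay 2.59 above the parental mean on the log2 scale in Sufu clone R1, 2.13 in Ofd1 clone R16 and 1.201 in R14 library 2, and was -0.64 in R14 library 1. After sonidegib it was -0.71 and -1.36, and amino acid synthesis and transport were lower too, while the regulators were at -0.72 in replicate 1 and 0.18 in replicate 2. ER chaperones and folding enzymes varied much less, and R1 was highest for 7 of the 10. No member passed an adjusted p of 0.05 in any of the 4 comparisons with the edgeR quasi-likelihood test.

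The promoters of the members are shown first, because part of them hold the elements that the factors of these pathways bind. The elements were searched by letters alone, on both strands, from 250 bases before to 50 after the RefSeq start of the gene (GRCm38.p6), which was on hand for 40 of the 44 members. The core TGATGNAA, the form of the element bound by Atf4 with Cebp partners, lay in 9 of these 40 promoters (22.5%) and in 4.51% of 27025 promoters of all genes. The 9 were those of Atf3, Nupr1, Trib3, Chac1, Asns, Pycr1, Slc7a11, Herpud1 and Vldlr. The examples below leave out Trib3 and Pycr1, although both varied more than Herpud1, which is shown. Slc7a11 holds a pair of cores and varied least of its role. Sequences run 5′ to 3′ on the strand of the gene. Letters fixed by the core are in capitals (reverse complement where it lies on the opposite strand).
Chac1, chr2:119351025-119351080, plus strand: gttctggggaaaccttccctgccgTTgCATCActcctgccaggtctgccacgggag
Atf3, chr1:191183412-191183467, minus strand: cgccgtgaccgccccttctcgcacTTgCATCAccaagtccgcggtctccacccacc
Nupr1, chr7:126625549-126625604, minus strand: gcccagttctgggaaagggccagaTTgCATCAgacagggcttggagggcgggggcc
Asns, chr6:7693210-7693256, minus strand: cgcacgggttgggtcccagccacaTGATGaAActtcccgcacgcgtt
Herpud1, chr8:94386293-94386348, plus strand: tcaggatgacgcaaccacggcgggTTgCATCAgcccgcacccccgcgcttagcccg
Vldlr, chr19:27216796-27216851, plus strand: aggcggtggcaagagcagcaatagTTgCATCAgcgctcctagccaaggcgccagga
Slc7a11, chr3:50443648-50443703, minus strand: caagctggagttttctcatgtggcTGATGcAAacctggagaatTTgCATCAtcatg

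The ER stress element, CCAAT and CCACG with 9 bases of any kind between them, lay in 7 of the 40 promoters (17.5%) and in 0.137% of all promoters. All 7 genes code for ER chaperones, folding factors or a secreted ER stress product: Hspa5, Hsp90b1, Calr, Canx, Pdia6, Dnajc3 and Creld2. A further element, TGACGTGG, the form bound by Xbp1 and Atf6, was in none of the 40 windows and in 0.714% of all promoters. The following show the element in the promoters of the chaperones Hspa5, Hsp90b1 and Calr and of the cochaperone Dnajc3. Its fixed letters are in capitals (CGTGG and ATTGG on the opposite strand). Hsp90b1 holds a further copy that is not shown.
Hspa5, chr2:34772001-34772067, plus strand: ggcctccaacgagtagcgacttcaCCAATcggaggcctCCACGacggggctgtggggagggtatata
Hsp90b1, chr10:86705614-86705680, minus strand: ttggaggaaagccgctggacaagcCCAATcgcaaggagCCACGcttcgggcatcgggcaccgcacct
Calr, chr8:84847051-84847117, minus strand: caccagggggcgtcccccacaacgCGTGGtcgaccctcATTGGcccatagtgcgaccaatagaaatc
Dnajc3, chr14:118937803-118937869, plus strand: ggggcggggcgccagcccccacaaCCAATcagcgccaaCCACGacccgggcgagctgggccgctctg

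Members with the Atf4 core had a median ratio of highest to lowest library of 6.22 (9 genes), against 2.77 for the 31 without it. For the ER stress element the ratio was 2.04 in the 7 members with it and 3.76 in the 33 without. Between the R14 libraries, the median log2 difference was 1.38 with the Atf4 core and 0.42 without, and -0.06 with the ER stress element and 0.67 without. These are descriptions of the letters and the levels. A match is not a measured binding site, and no element search was tested. Element and role also overlapped. The Atf4 core was found in no chaperone or folding enzyme, while every holder of the ER stress element except Creld2 was of that role. Element and role therefore cannot be told apart in these ratios.

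Totals ran from 24308451 to 38241595 counts, and no pair of libraries within a group held the same data within sampling noise. Ofd1 stood at 9.27 to 23.4 CPM in Ofd1 mutants and 35.4 to 42.9 CPM in parental cells, and at 23.4 CPM in sonidegib replicate 2. Sufu was at 27.7 to 29.6 CPM in parental cells, 17.7 CPM in clone R1 and 2.76 CPM in clone R13. It was also below the parental range in the Ofd1 clones, at 12.02 to 19.2 CPM, and in sonidegib replicate 2, at 5.601 CPM, so its level in R1 does not set that clone apart. One library stood apart: in sonidegib replicate 2, levels relative to the other libraries fell with transcript length (Spearman -0.53 across genes, against -0.00 to 0.25 in the other 10), and it held the highest value of 30.7% and the lowest value of 27.3% of all genes. The sonidegib median over the members and the edgeR calls are given with and without this library. The other sonidegib results include it. All 8 markers of granule cell progenitors and Hedgehog medulloblastoma were present, and the markers of microglia (4 of 4) and of fibroblasts (4 of 4) were below 1 CPM in every library.

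Over all 44 members the median ratio of highest to lowest library was 3.29, against 2.40 over the 12615 genes. By role it was 25.8 for feedback and effector targets, 8.84 for regulators, 6.82 for amino acid transporters, 4.56 for amino acid synthesis, 3.77 for secreted and other targets, 3.52 for ER degradation, 2.91 for sensors and 2.18 for chaperones and folding enzymes. R1 held the highest value for 32 of 44 members (72.7%), and for 12.9% of all genes. Sonidegib replicate 1 held the lowest value for 20 members (45.5%; 9.16% of all genes) and sonidegib replicate 2 for 10 (22.7%; 27.3% of all genes). The map of all members by library shows these blocks.

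**Figure D1:**
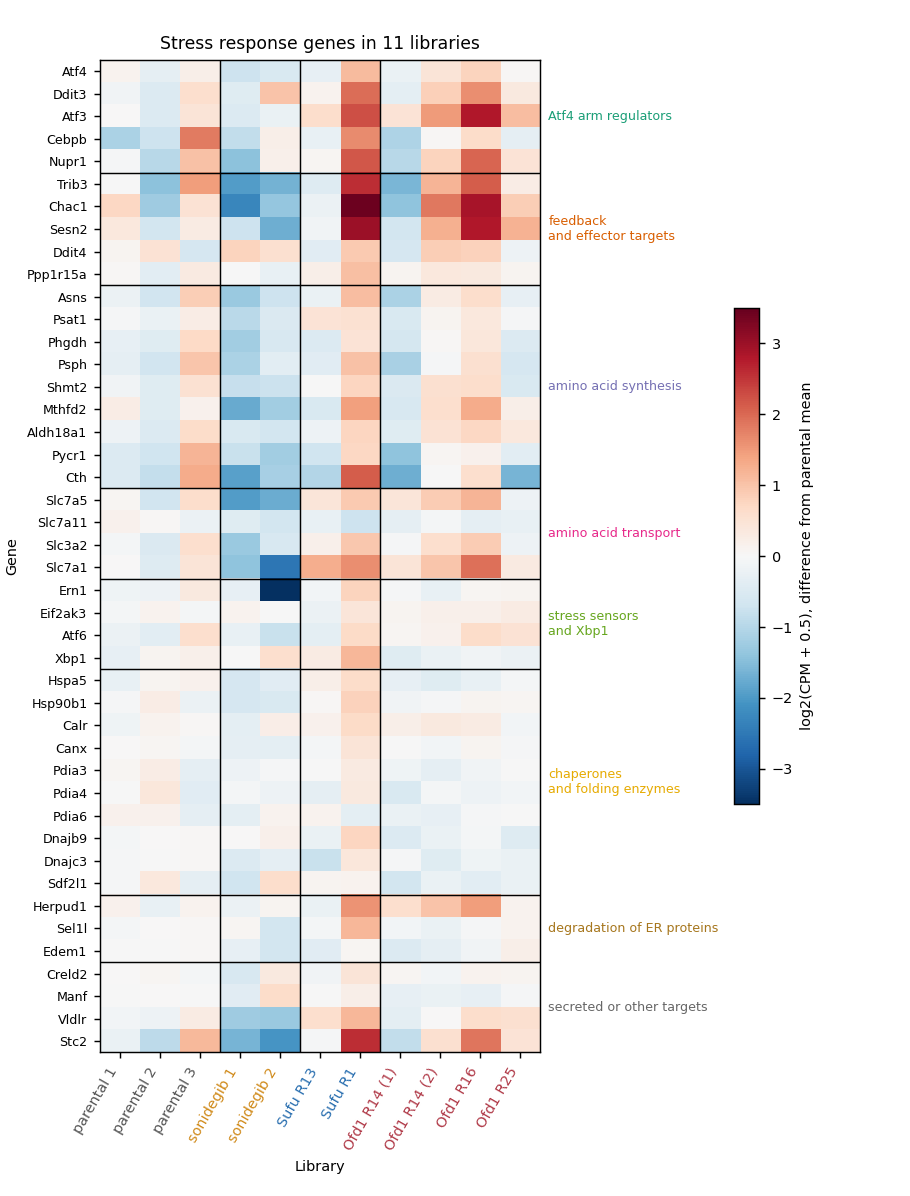
Log2 level of each of the 44 members (rows, by role) in the 11 libraries (columns) as the difference from the mean of the 3 parental libraries, on log2(CPM + 0.5). Feedback targets have medians of 2.59 in Sufu R1 and 2.13 in Ofd1 R16, and transporters of -1.36 and -1.197 in the sonidegib libraries; chaperone medians lie between -0.35 (sonidegib replicate 1) and 0.42 (R1).

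Values below are CPM of the scaled library size, in the order parental replicates 1 to 3, sonidegib replicates 1 and 2, Sufu R13 and R1, R14 libraries 1 and 2, R16 and R25. Levels of different genes are not compared, since they are not per length.

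The 5 regulators are Atf4, the transcription factors Ddit3, Atf3 and Cebpb, which it induces or pairs with, and Nupr1, a small chromatin-associated stress protein. Ddit3 codes for Chop, which promotes cell death under lasting stress; it stood at 16.1, 12.4 and 26.8 CPM in parental cells, 12.9 and 35.4 after sonidegib, 19.0 in R13, 69.9 in R1, 13.9 and 31.9 in R14, 55.1 in R16 and 22.6 in R25. R1 and R16 were above every other library, and the R14 libraries differed by 1.17 on the log2 scale. Atf3, a stress-induced partner of Chop, stood at 5.35, 3.72 and 7.50 CPM in parental cells, 3.67 and 4.47 after sonidegib, 8.42 in R13, 27.3 in R1, 7.61 and 15.8 in R14, 40.0 in R16 and 11.8 in R25. It was the member for which every mutant library, Sufu and Ofd1, lay above every parental one. Nupr1 stood at 14.2, 7.14 and 30.04 CPM in parental cells, 5.04 and 16.6 after sonidegib, 15.3 in R13, 67.9 in R1, 7.14 and 25.5 in R14, 61.6 in R16 and 20.5 in R25. Cebpb, a partner of Atf4 on DNA, stood at 2.44, 3.32 and 21.5 CPM in parental cells, 2.97 and 6.73 after sonidegib, 4.73 in R13, 19.2 in R1, 2.48 and 5.97 in R14, 9.36 in R16 and 4.52 in R25. For Cebpb the highest library was parental replicate 3, and the lowest was parental replicate 1, so its untreated controls alone covered the range of all groups.

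Atf4 itself, named here after its values were seen because the list is built on it, stood at 484, 355 and 508 CPM in parental cells and 269 and 309 after sonidegib. It reached 950.2 CPM in R1 against 366 in R13, and stood at 374 and 606 in R14, 756 in R16 and 454 in R25. R1 and R16 were again the highest libraries and the sonidegib libraries the lowest, over a ratio of 3.54. Atf4 is controlled mainly at translation, which mRNA levels do not measure.

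Feedback and effector targets were the most variable role. Chac1 codes for an enzyme that degrades glutathione; it stood at 16.8, 3.93 and 14.4 CPM in parental cells, 1.64 and 3.58 after sonidegib, 8.50 in R13, 111 in R1, 3.42 and 36.9 in R14, 76.6 in R16 and 18.5 in R25. The ratio of its highest to its lowest library, 68.2, was the widest among the members. Trib3, a pseudokinase that restrains Atf4 and Chop, stood at 19.1, 6.85 and 53.7 CPM in parental cells, 4.61 and 5.84 after sonidegib, 14.1 in R13, 119 in R1, 6.02 and 45.1 in R14, 86.3 in R16 and 23.4 in R25. Sesn2, a sensor that holds back mTORC1 when leucine is short, stood at 29.9, 14.5 and 28.1 CPM in parental cells, 13.9 and 6.64 after sonidegib, 21.2 in R13, 189 in R1, 14.7 and 55.7 in R14, 164 in R16 and 54.3 in R25. In each of these genes R1 and R16 were the highest libraries, and the sonidegib libraries lay below all parental ones. Ddit4, another inhibitor of mTORC1 that hypoxia also induces, was likewise highest in R1, with R14 library 2 and R16 next. It differed from them after sonidegib. It stood at 333, 437 and 206 CPM in parental cells, 532 and 459 after sonidegib, 234 in R13, 584 in R1, 207 and 567 in R14, 547 in R16 and 275 in R25, and was the only member whose sonidegib libraries both exceeded all parental ones, where 18% of all genes tested did. Ppp1r15a, the eIF2 alpha phosphatase subunit Gadd34, ranged from 34.3 to 93.4 CPM with its maximum in R1.

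**Figure D2:**
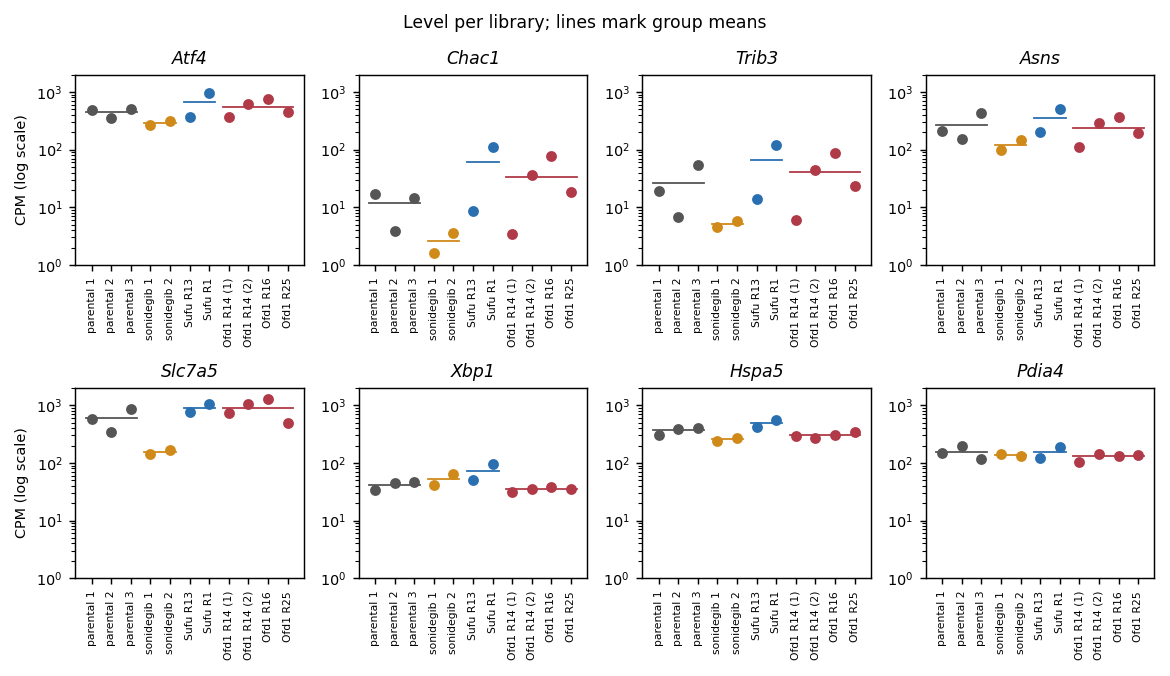
Level in CPM (log axis) of Atf4, Chac1, Trib3, Asns, Slc7a5, Xbp1, Hspa5 and Pdia4 in each library, with 1 point per library and a line at each group mean. Chac1 and Trib3 span ratios of 68.2 and 25.8 over the libraries, Hspa5 and Pdia4 ratios of 2.33 and 1.93.

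All 9 genes of amino acid synthesis code for enzymes, of the serine and one-carbon pathway (Phgdh, Psat1, Psph, Shmt2, Mthfd2), of proline (Aldh18a1, Pycr1), of asparagine (Asns) and of cysteine (Cth). Mthfd2, the mitochondrial folate enzyme, stood at 193, 119.6 and 176 CPM in parental cells, 47.1 and 67.8 after sonidegib, 110.0 in R13, 432 in R1, 107 and 241 in R14, 390.1 in R16 and 182 in R25. Asns stood at 208, 150.3 and 434 CPM in parental cells, 96.6 and 145 after sonidegib, 204 in R13, 506 in R1, 111 and 289.7 in R14, 368 in R16 and 194 in R25. For Mthfd2 the sonidegib libraries lay below all others; for Asns, R14 library 1 fell between them. Cth stood at 12.1, 9.19 and 42.6 CPM in parental cells, 4.17 and 7.27 after sonidegib, 8.01 in R13, 75.2 in R1, 4.84 and 16.8 in R14, 25.8 in R16 and 5.09 in R25. Pycr1 stood at 18.5, 15.98 and 59.7 CPM in parental cells, 14.9 and 11.1 after sonidegib, 16.1 in R13, 43.5 in R1, 9.60 and 27.7 in R14, 29.3 in R16 and 20.03 in R25. Parental replicate 3 was the highest library for Pycr1 and for Phgdh, so for these genes the controls reached as high as any mutant. The other 5 enzymes varied by ratios of 2.64 (Aldh18a1) to 4.56 (Psph), and Psat1 was highest in both Sufu clones, which held 1030.2 CPM (R13) and 1084 CPM (R1).

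Of the 4 transporters, Slc7a5 and Slc3a2 form the large neutral amino acid exchanger, Slc7a1 takes up arginine and lysine, and Slc7a11 takes up cystine. Slc7a5 stood at 582, 349 and 851 CPM in parental cells, 143 and 166 after sonidegib, 749.8 in R13, 1045 in R1, 747 and 1041 in R14, 1264 in R16 and 489.7 in R25. Slc7a1 stood at 164, 117 and 219 CPM in parental cells, 60.6 and 27.7 after sonidegib, 392 in R13, 503 in R1, 219.6 and 316 in R14, 614 in R16 and 202 in R25. Both Sufu clones lay above every parental library for Slc7a1, and R13 was 1.28 above the parental mean on the log2 scale. Slc3a2 stood at 303, 221 and 476 CPM in parental cells, 128 and 214 after sonidegib, 360.2 in R13, 612 in R1, 310.4 and 481 in R14, 589.8 in R16 and 281 in R25. Slc7a11 was lower after sonidegib, like the other transporters, and differed from them in R1 and R16; it stood at 235, 219 and 183 CPM in parental cells, 157 and 135 after sonidegib, 175 in R13, 129 in R1, 169.7 and 203 in R14, 170.1 in R16 and 177 in R25. R1, the library with the highest values for most members, was the lowest for Slc7a11, although its promoter holds a pair of the Atf4 cores printed above.

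The sensors moved less. Perk (Eif2ak3) stood at 36.6, 41.8 and 36.9 CPM in parental cells, 41.5 and 38.2 after sonidegib, 33.4 in R13, 51.9 in R1, 40.7 and 43.7 in R14, 43.1 in R16 and 46.6 in R25. Atf6 stood at 135, 121 and 236 CPM in parental cells, 131 and 91.7 after sonidegib, 123 in R13, 252 in R1, 165 and 173 in R14, 245 in R16 and 222 in R25. Ire1 (Ern1) stood at 11.9, 11.7 and 17.2 CPM in parental cells, 10.8 and 0.745 after sonidegib, 12.4 in R13, 23.1 in R1, 12.9 and 11.1 in R14, 13.9 in R16 and 14.4 in R25. The low Ern1 value was that of sonidegib replicate 2 alone, the library whose levels fall with transcript length; sonidegib replicate 1 lay just under the parental range. Xbp1 stood at 34.0, 44.5 and 47.3 CPM in parental cells, 41.1 and 63.3 after sonidegib, 50.9 in R13, 94.2 in R1, 30.7 and 35.1 in R14, 37.9 in R16 and 35.7 in R25. Gene counts do not tell the spliced, active Xbp1 transcript from the unspliced one.

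Among the 10 chaperones and folding enzymes the ratio of highest to lowest library was between 1.43 (Pdia6) and 2.64 (Hsp90b1). Hspa5, the chaperone BiP that keeps the ER sensors silent, stood at 304, 391 and 400.5 CPM in parental cells, 242 and 275 after sonidegib, 419.7 in R13, 563 in R1, 294 and 270.1 in R14, 299.7 in R16 and 345 in R25. Hsp90b1 (Grp94) stood at 489, 607 and 439 CPM in parental cells, 337 and 349 after sonidegib, 523 in R13, 890.4 in R1, 466 and 491 in R14, 539.8 in R16 and 534 in R25. R16, next to R1 in Chac1, Trib3 and Sesn2, was within the parental range for Hsp90b1 and just below it for Hspa5. Dnajb9, an Ire1 regulator and Xbp1 target, stood at 22.4, 23.7 and 24.0 CPM in parental cells, 23.7 and 26.2 after sonidegib, 19.8 in R13, 39.6 in R1, 16.5 and 19.9 in R14, 22.4 in R16 and 17.0 in R25. Sdf2l1, a cofactor of BiP, stood at 23.5, 31.6 and 19.5 CPM in parental cells, 14.8 and 37.3 after sonidegib, 26.1 in R13, 26.4 in R1, 15.4 and 20.7 in R14, 18.7 in R16 and 20.6 in R25, so the sonidegib replicates held both its extremes. The lectin chaperones Calr and Canx, the disulphide isomerases Pdia3, Pdia4 and Pdia6 and the cochaperone Dnajc3 ranged by ratios of 1.43 to 2.32.

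Of the genes that degrade ER proteins, Herpud1, which assembles the retrotranslocation complex, was highest in R1 and R16. It stood at 48.2, 36.2 and 47.1 CPM in parental cells, 37.3 and 46.5 after sonidegib, 36.7 in R13, 129 in R1, 65.2 and 86.9 in R14, 121 in R16 and 46.9 in R25. The sonidegib libraries lay within its parental range, and both R14 libraries above it. Sel1l, the partner of the ubiquitin ligase Hrd1, stood at 88.1, 93.1 and 95.9 CPM in parental cells, 96.9 and 58.7 after sonidegib, 87.5 in R13, 206 in R1, 87.2 and 77.9 in R14, 89.6 in R16 and 99.96 in R25. Its value in R1 lay far above the 10 other libraries, which held between 58.7 and 99.96 CPM. Edem1, a lectin that hands glycoproteins over for degradation, stood at 71.0, 71.1 and 74.7 CPM in parental cells, 59.6 and 46.4 after sonidegib, 55.2 in R13, 75.5 in R1, 51.5 and 58.0 in R14, 66.0 in R16 and 82.6 in R25.

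The last role holds secreted products and the lipoprotein receptor Vldlr. Stc2, a secreted glycoprotein induced through Atf4, stood at 3.01, 1.70 and 8.56 CPM in parental cells, 0.834 and 0.477 after sonidegib, 3.49 in R13, 24.4 in R1, 1.77 and 5.602 in R14, 14.7 in R16 and 5.19 in R25. Vldlr stood at 220.5, 208 and 292 CPM in parental cells, 99.9 and 96.5 after sonidegib, 354 in R13, 528 in R1, 186 and 240.2 in R14, 363 in R16 and 351 in R25. Both were lowest after sonidegib and highest in R1. Manf, a secreted ER survival factor, stood at 86.8, 87.5 and 87.0 CPM in parental cells, 65.6 and 135 after sonidegib, 87.1 in R13, 101 in R1, 70.9 and 73.7 in R14, 71.6 in R16 and 84.1 in R25. Creld2, another secreted ER stress product, stood at 32.5, 34.0 and 30.7 CPM in parental cells, 22.0 and 41.1 after sonidegib, 29.4 in R13, 44.4 in R1, 33.8 and 30.4 in R14, 35.3 in R16 and 34.4 in R25. For Manf and Creld2 the sonidegib replicates lay on either side of the parental range.

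The comparison of the Sufu clones with each other has 1 library on each side, so it has no replicate check, and members are counted by a log2 difference of at least 1 on log2(CPM + 0.5). Against the parental mean, R1 was higher by that much in 19 of 44 members and lower in 0, where 3.19% of all genes were higher and 4.79% lower. The median over the members was 0.86 (-0.01 over all genes), 42 of 44 differences were positive, and they ran from -0.71 (Slc7a11) to 3.42 (Chac1). R13 was higher by that much in 1 member, Slc7a1, where 4.66% of all genes were, and lower in 1, Cth, at -1.03, where 2.01% of all genes were. Its median was -0.11 (-0.04 over all genes). Set directly against R13, R1 was higher by the same margin in 19 members and lower in 0, where 2.88% of all genes were higher and 6.99% lower, with a median of 0.90. By role, the median difference of R1 from R13 was 3.03 for feedback targets, 1.86 for regulators, 1.31 for amino acid synthesis, 1.23 for ER degradation, 0.88 for sensors, 0.58 for secreted and other targets, 0.52 for chaperones and 0.42 for transporters. The transporters thus had the smallest median, and both clones stood above the parental mean for Slc7a1, Slc7a5 and Slc3a2. Of the pair, R13 had the lower Sufu transcript, 2.76 CPM against 17.7 CPM.

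**Figure D3:**
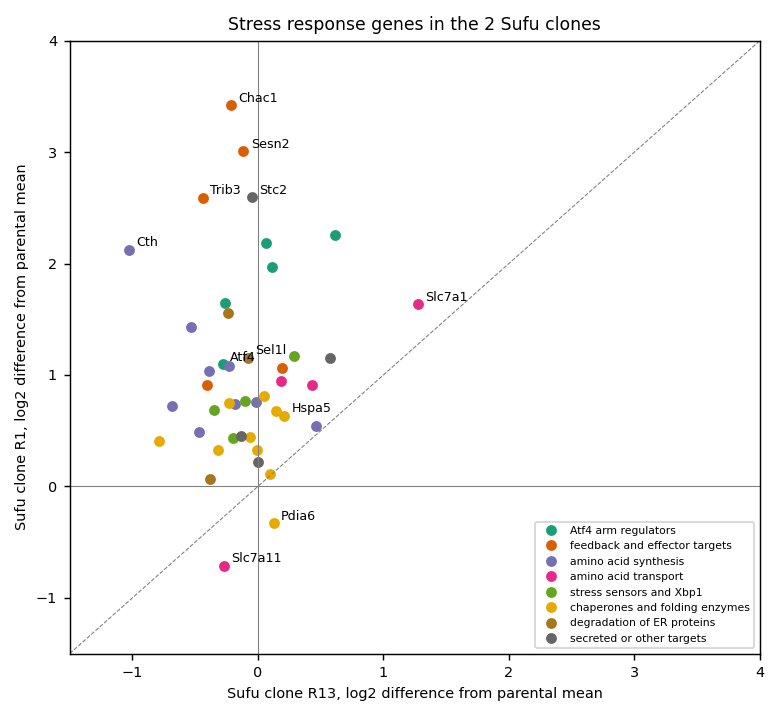
Log2 difference from the parental mean of each of the 44 members in Sufu clone R13 and in Sufu clone R1, with 1 point per gene coloured by role, lines at 0 and a dashed line at equal values. Of the 44 points, 42 lie above the dashed line, with R1 differences up to 3.42 and R13 differences between -1.03 and 1.28.

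Libraries of the same kind differed by margins of this size too. The pair of libraries from clone R14 share genotype and clone, yet library 2 was higher by a log2 difference of at least 1 in 15 of 44 members and lower in 0, where 1.31% of all genes were higher and 1.27% lower. The median over the members was 0.47 (0.00 over all genes), and Chac1 differed most, by 3.25. By role the medians were 1.89 for feedback targets, 1.12 for regulators, 1.09 for amino acid synthesis, 0.50 for transporters, 0.21 for secreted and other targets, 0.17 for ER degradation, 0.08 for sensors and 0.02 for chaperones. R16 against the parental mean, by contrast, sets a mutant clone against parental cells and so compares different kinds. R16 was higher by that margin in 11 members and lower in 0, where 3.04% of all genes were higher and 2.5% lower. Its medians were 2.13 for feedback targets and -0.09 for chaperones. Parental replicate 3 was higher than the mean of parental replicates 1 and 2 by that margin in 9 members and lower in 0, where 5.03% of all genes were higher and 2.61% lower. Its largest difference was Cebpb, at 2.72, and its largest role median was amino acid synthesis, at 1.05. In each of these 3 contrasts the role with the largest median belonged to the Atf4 arm, and the chaperones had medians of 0.02, -0.09 and -0.22.

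**Figure D4:**
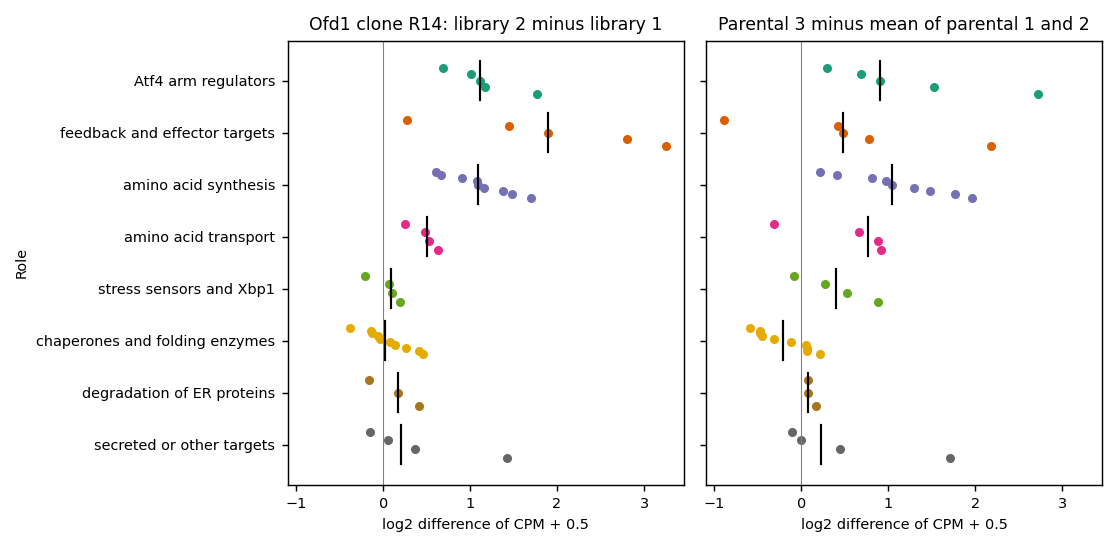
Log2 difference of the members between libraries of 1 kind: R14 library 2 against library 1, and parental replicate 3 against replicates 1 and 2, with 1 point per gene on log2(CPM + 0.5), grouped by role, and a bar at each median. In clone R14 feedback targets reach 3.25 and regulators 1.76; chaperone medians are 0.02 and -0.22.

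Sonidegib against untreated parental cells asks how blocking Smoothened for 24 h changed the members. Members were lower on balance: 37 of 44 fold changes were negative, with a median log2 fold change of -0.57 (0.04 over the 13809 genes tested). The median was -0.60 without sonidegib replicate 1, -0.62 without replicate 2, and between -0.73 and -0.40 when a parental replicate was left out. In 24 members both sonidegib libraries lay below all 3 parental ones, where 16.3% of all genes did; these included all 4 transporters and 8 of the 9 enzymes of amino acid synthesis. With edgeR, 0 members passed (9 genes, 0.0652% of those tested), and 16 members, all lower, had an unadjusted p under 0.05, where 14% of genes did. The smallest adjusted p was that of Vldlr, at 98.2 ± 2.38 CPM (SD, n = 2) against 240.4 ± 45.4 CPM (n = 3), a log2 fold change of -1.30 ± 0.24 (SE) with an edgeR adjusted p of 0.104.

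DESeq2, run as an alternative, called 7 members lower and 0 higher after sonidegib, where it called 5.64% of all genes. They were Vldlr (DESeq2 adjusted p = 4.64e-05), Slc7a5 (9.26e-05), Mthfd2 (0.000251), Slc7a1 (0.000688), Stc2 (0.0118), Chac1 (0.0218) and Trib3 (0.0244). In edgeR, Slc7a5 had a log2 fold change of -1.95 ± 0.40 (adjusted p = 0.124), Slc7a1 of -1.92 ± 0.43 (0.148) and Mthfd2 of -1.51 ± 0.30 (0.118). Chac1, at -2.18 ± 0.72, and Trib3, at -2.35 ± 0.82, had larger and less certain changes (adjusted p = 0.282 and 0.307). By role, the median was -1.45 for transporters, -1.24 for feedback targets, -0.95 for amino acid synthesis and -0.15 for chaperones. Ddit4, at 0.60 ± 0.33 (adjusted p = 0.430), was the largest positive value. Without sonidegib replicate 1, the fit, which then assumes that the lone sonidegib library varies like the parental ones, called 3263 genes and 7 members, of which Ern1, Edem1, Mthfd2, Sel1l, Slc7a1 and Vldlr were lower and Manf higher; without replicate 2 it called 1 gene and 0 members, and without parental replicate 1, 2 or 3 it called 1, 2 and 0 genes and 0 members. Gfap, an astrocyte gene, made nearly all of the summed astrocyte markers (3 listed, with Aqp4 and Aldh1l1 under 1 CPM), which stood at 101 to 106 CPM after sonidegib and 14.1 to 35.6 CPM in parental cells. Of the progenitor and medulloblastoma markers, the Hedgehog targets Gli1 and Gli2 reached at most 8.82 and 142 CPM after sonidegib, against up to 243 and 335 CPM in parental cells. The other way went Atoh1, Barhl1, Pax6 and Mycn, which reached 962, 1223, 261 and 79.3 CPM after sonidegib. Their parental libraries reached at most 545, 555, 134 and 61.8 CPM. Zic1 and Zic2 overlapped between the groups. The part of these shifts in the result was not tested, and in such bulk libraries fewer cells of a type and less RNA per cell cannot be told apart.

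**Figure D5:**
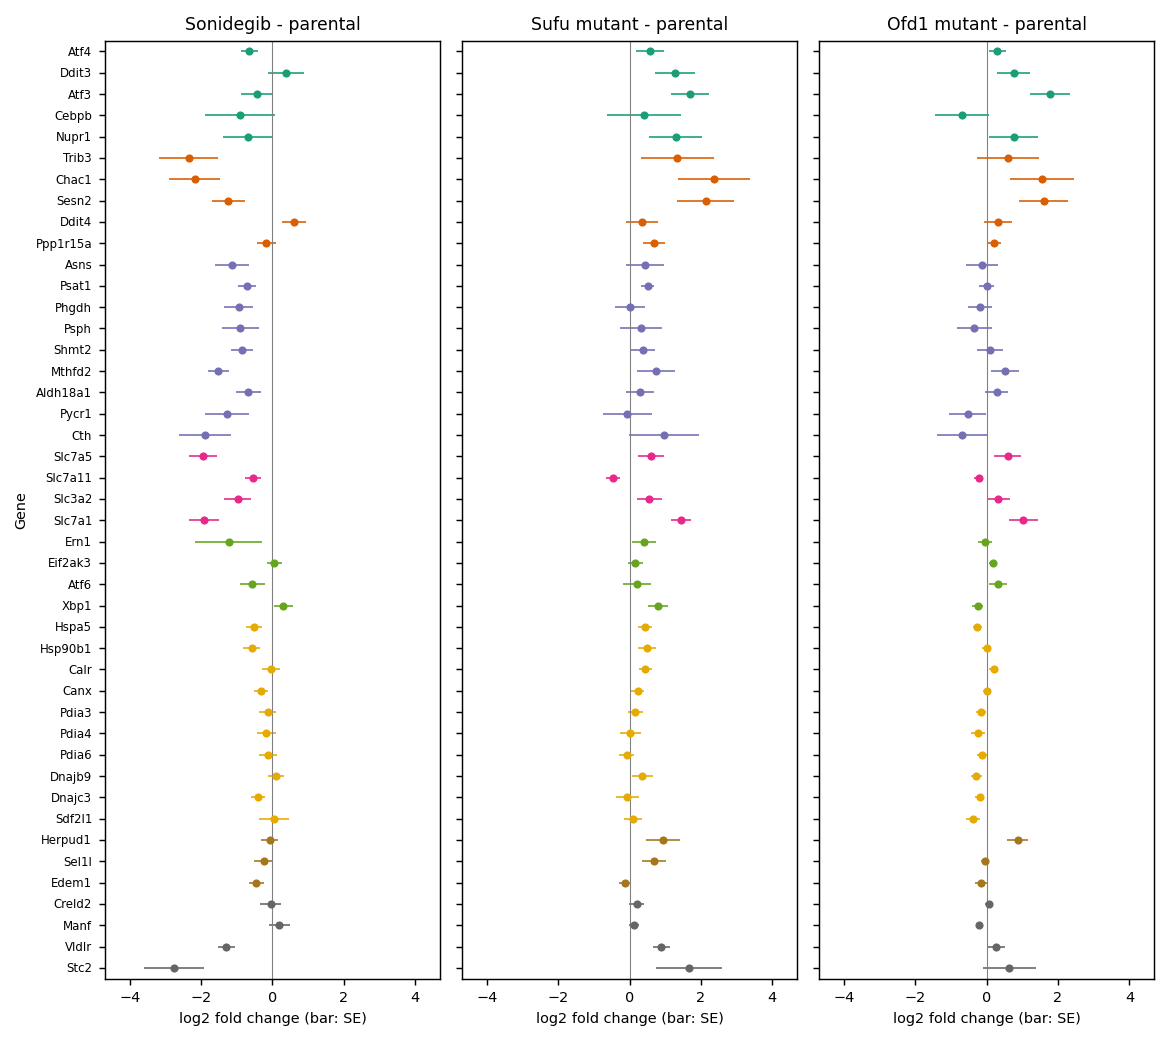
Log2 fold change from edgeR with its standard error for the members in sonidegib, Sufu mutant and Ofd1 mutant against parental cells (1 panel each), coloured by role. Sonidegib values lie mostly below 0, Sufu values mostly above 0 with wide errors in the Atf4 arm, and Ofd1 values on either side of 0.

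The Sufu mutants against parental cells gave 39 positive fold changes of 44 and a median of 0.44 (0.00 over 13854 genes). The sign depended on R1: with R13 alone in the group the median was -0.16, and with R1 alone it was 0.82. With edgeR, 0 members and 0 genes (0.0%) passed, or 11 genes and 0 members without parental replicate 3, and 6 members, all higher, had an unadjusted p under 0.05, where 9.68% of genes did. In 7 members (Atf3, Psat1, Slc7a1, Xbp1, Hspa5, Calr and Vldlr) both clones lay above all parental libraries, where 11.9% of genes did, and in Slc7a11 alone both lay below, where 14.8% did. DESeq2 called 2 members, both higher, where it called 2.25% of genes. These were Slc7a1, at 448 ± 78.2 CPM (SD, n = 2) against 167 ± 51.1 CPM (n = 3), and Vldlr, at 441 ± 123 CPM against 240.4 ± 45.4 CPM. Slc7a1 had a log2 fold change of 1.44 ± 0.27 (edgeR adjusted p = 0.277, DESeq2 adjusted p = 0.000219). Vldlr had 0.89 ± 0.23 (edgeR adjusted p = 0.370, DESeq2 adjusted p = 0.0275). Chac1 had a larger fold change, 2.37 ± 1.02, with an edgeR adjusted p of 0.529, and its SD in CPM was wider in the clones than in parental cells. For some other members, among them Cebpb, Phgdh and Pycr1, the SD was wider in parental cells. What set the error of each member was not tested.

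The Ofd1 mutants against parental cells gave 23 positive and 21 negative fold changes, with a median of 0.03 (0.01 over 13779 genes). It ran from -0.06 without R16 to 0.30 without parental replicate 3. With edgeR, 0 members passed, where 50 genes (0.363%) did, and 4 members, all higher, had an unadjusted p under 0.05, where 13.8% of genes did. Atf3 alone had all 4 Ofd1 libraries above the parental ones, where 6.17% of genes did, and Manf alone had all 4 below, where 7.25% did. Atf3 stood at 18.8 ± 14.5 CPM (SD, n = 4) against 5.52 ± 1.90 CPM (n = 3), a log2 fold change of 1.77 ± 0.56. Its edgeR adjusted p was 0.214 and its DESeq2 adjusted p 0.0167, and it was the 1 member that DESeq2 called, where it called 5.5% of genes. That call counts the R14 libraries as separate replicates, and DESeq2 was not run with them summed. Herpud1 had 0.87 ± 0.30 (edgeR adjusted p = 0.242) and Sesn2 1.59 ± 0.69 (0.361). The 50 genes fell to 0 without parental replicate 1, parental replicate 2 or R14 library 2, to 6 without R14 library 1 and to 11 without R16, and rose to 226 without R25 and 329 without parental replicate 3; 0 members were called in each of these fits.

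Ofd1 against Sufu mutants compared the clone classes without the parental libraries. Here 40 of 44 fold changes were negative, that is, lower in the Ofd1 mutants, with a median of -0.39 (-0.00 over 14026 genes). The median was -0.67 with R1 as the only Sufu library and 0.20 with R13 as the only one, so its sign followed the clone. With edgeR, 0 members and 1 gene (0.00713%) passed, or 11 genes and 0 members without R13, and 7 members, all lower, had an unadjusted p under 0.05, where 8.93% of genes did. In 6 members (Hspa5, Manf, Pdia3, Psat1, Sdf2l1 and Xbp1) all Ofd1 libraries lay below both Sufu ones, where 8.34% of genes did. Of the 10 chaperones and folding enzymes, 3 were among them and the other 7 overlapped. DESeq2 called 2 members, both lower, where it called 2.0% of genes. Xbp1 stood at 34.8 ± 3.06 CPM (SD, n = 4) against 72.6 ± 30.6 CPM (n = 2), a log2 fold change of -1.07 ± 0.23 (edgeR adjusted p = 0.312, DESeq2 adjusted p = 0.00732). Hspa5 stood at 302 ± 31.2 CPM against 491 ± 101 CPM, a log2 fold change of -0.72 ± 0.16 (edgeR adjusted p = 0.315, DESeq2 adjusted p = 0.0118). The sonidegib, Sufu and Ofd1 contrasts share the parental libraries, and this one shares its mutants with them, so their values are not independent.

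A second list held 66 other genes of the same pathways: eIF2 kinases and exchange factor subunits, further Atf4 targets, aminoacyl-tRNA synthetases, and further ER chaperones and degradation genes. All were in the table and 64 were tested. With edgeR, 0 passed in any comparison, and the number with an unadjusted p under 0.05 was 19 for sonidegib, 5 for Sufu, 3 for Ofd1 and 5 for Ofd1 against Sufu, where 14%, 9.68%, 13.8% and 8.93% of all genes had one. DESeq2 called Cars and Aldh1l2 lower after sonidegib, Syvn1 higher in the Sufu mutants, Eif2ak2 higher in the Ofd1 mutants, and 0 between the mutants. Of all genes it called 5.64%, 2.25%, 5.5% and 2.0%, so each of these counts of the 64 lay under its share. The called genes are named after their values were seen. Median log2 fold changes were -0.32, 0.23, 0.05 and -0.17 in that order. R1 was higher than the parental mean by a log2 difference of at least 1 in 17 of the 64 and lower in 0, R13 higher in 1, R14 library 2 above library 1 in 8, and R16 above the parental mean in 10. The shares of all genes were 3.19%, 4.66%, 1.31% and 3.04%, so R13 lay under its share. Aldh1l2, the mitochondrial folate enzyme next to Mthfd2 in the pathway, stood at 52.6, 32.7 and 237 CPM in parental cells, 16.9 and 18.1 after sonidegib, 64.0 in R13, 240.2 in R1, 29.3 and 98.8 in R14, 157 in R16 and 69.7 in R25. Cars, the cysteinyl-tRNA synthetase, stood at 108, 82.5 and 135 CPM in parental cells and 53.7 and 54.5 after sonidegib, and at 99.8 in R13 and 230.2 in R1. Both were lowest after sonidegib and highest in R1. Eif2ak1, the eIF2 kinase known as Hri and also named after its values were seen, was highest in R13, at 133 CPM against 49.5 to 85.6 CPM in the other 10 libraries.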

How the data were processed

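Poly(A) RNA was read from 1 end at 75 bases in 11 libraries, made from 500 ng of RNA and run together, per the labels' protocols. The deposited table holds raw counts of reads per gene symbol. The submitters' processing notes name STAR, DESeq2 and mm9. Versions, the counter, its strand setting and its annotation were not given in the sources used here. A row without a gene name (0.0131% to 0.0192% of a library) was left out.

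The members, their roles and the other lists were chosen with earlier results of these data known. Groups were compared pairwise with edgeR 4.0.16 (R 4.3.3; robust quasi-likelihood, TMM, filterByExpr), two-sided, with Benjamini-Hochberg adjustment over all genes tested and a threshold of 0.05. Each SE is the absolute fold change over the root of F. Levels are CPM on TMM-scaled totals. Libraries were compared singly by log2(CPM + 0.5). Values in every library are given for up to 4 members a role, those with the widest range. DESeq2 1.42.0, other filters, a fit of all libraries, removal of the trend on transcript length (GENCODE M21 lengths, 99.2% of genes matched), a replicate block and leaving out each library were alternatives. Only the edgeR test was tried on simulated counts, which had the same relative spread for every gene and no clone or outlier library. That trial does not cover the spread seen between these libraries. Intervals of 2 to 4 libraries are wide, and their number limits precision. Promoters came from RefSeq (GRCm38.p6), not the build of the counts, and served for sequence only.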

Additional observations from a re-analysis of the deposited data

How the results depend on the processing

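With all libraries kept, the members' median log2 fold change kept its sign in each comparison under DESeq2, its size factors in edgeR, no filter on low counts, a fit of all libraries and removal of the length trend. For Ofd1 that median was only 0.03 to 0.06, where the SD between libraries of a group was 0.32, so its sign says little. R1 held the highest value of 32 members under both other scalings. Calls did not hold. DESeq2 called 733, 305, 755 and 275 genes for sonidegib, Sufu, Ofd1 and Ofd1 against Sufu, and 7, 2, 1 and 2 members. Without a filter on low counts the genes numbered 109, 3, 84 and 2. One fit of all 11 libraries gave 316 genes and 1 member (Slc7a5) for sonidegib and 9 genes for Ofd1. Removing the length trend gave 73 genes and 1 member (Mthfd2) for sonidegib. Summing the R14 libraries left 1 gene for Ofd1 and 0 against Sufu, and leaving R14 out, chosen after seeing the data, left 0 and 0. The cause of these differences was not tested.

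Leaving out 1 library at a time gave 0 to 3263 genes and 0 to 7 members for sonidegib, 0 to 11 genes for Sufu, 0 to 329 for Ofd1 and 0 to 11 for Ofd1 against Sufu, with 0 members in the last 3. Medians ran from -0.73 to -0.40, -0.16 to 0.82, -0.06 to 0.30 and -0.67 to 0.20. Leaving out parental libraries gave 16 to 24 members past the fold in R1 (median 0.71 to 1.12) and 1 in R13 (median -0.18 to 0.01).

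Same-numbered libraries were not treated as pairs in the main fits. Their deviations from group means correlated at 0.257 and -0.324 for parental with sonidegib, and at 0.111 and -0.157 for parental with R14. The deviations of the sonidegib libraries mirror each other, so the mismatched libraries gave -0.257 (parental 1, sonidegib 2) and 0.324 (parental 2, sonidegib 1). These values therefore cannot show whether the libraries were paired. A replicate block joined the libraries numbered 1 and 2 across groups and gave every other library its own block. Those other libraries then did not inform the group effect. For sonidegib this gave 97 of 13809 genes and 1 member (Slc7a1). For Ofd1 the effect was that of clone R14 against parental replicates 1 and 2, without R16 and R25. It gave 1603 of 13779 genes and 2 members (Pdia4 and Sdf2l1). For the Sufu clones, the labels give no replicate number, so no block was fitted.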
